A study of Brassica rapa with 38 samples.

Results

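In young leaves of *Brassica rapa*, 66 genes in the diploid lay past a set ratio above or below both other ploidy levels. There were 52 genes above and 14 genes below, among 14995 filtered genes of the 46479 gene models listed. Genes were selected on their deposited expression values: a gene was chosen when diploid replicates 1 and 2 each reached at least 1.25 times the highest of the 6 autotetraploid and monoploid libraries, or at most 0.8 times the lowest of them. The values compared were TPM, the length-corrected abundance of a gene relative to the total of its library. Of the 31495 gene models on chromosomes A01, A03, A05, A06, A07, A08 and A10, without a block of A06 from 30.17 to 30.51 Mb, 14995 had a TPM of at least 1 in every library and a mean TPM of at most 500. The 52 higher genes were 0.347% of these 14995 and the 14 lower genes 0.0934%. The limit of 150 genes per direction was not reached, so no gene past the ratio was dropped. Since the same libraries chose the genes, the diploid levels below are a description and carry no test.

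Polyploidy is the presence of more chromosome sets than usual, and an autopolyploid carries copies of 1 genome only. Doubling that genome changes the number of copies of every gene in the same proportion, so genes that depart from the rest are of interest in such series. The diploid is the middle step of this series, and a gene that is highest or lowest there does not follow the order of the chromosome sets. TPM cannot show a change that all transcripts of a cell share, and fewer cells of a type cannot be told apart from less RNA per cell in whole leaves.

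The diploid, autotetraploid and monoploid plants shared the genotype 85_1. Each level was derived from the one before it by doubling with colchicine, in the order monoploid, diploid and autotetraploid, and the first of these had been raised from cultured microspores of an inbred line. All plants had been propagated in tissue culture and were grown in a greenhouse, and inner young leaves were taken 60 days after sowing, at the heading stage. RNA-seq was analysed for 2 diploid (D1 and D2), 3 autotetraploid (T1 to T3) and 3 monoploid (M1 to M3) libraries. The labels call them replicates without saying which plants each one holds, so p-values measure the spread between these libraries. All levels go back to 1 line, and the colchicine treatments and the culture history cannot be told apart from the number of chromosome sets.

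Depth was 5.86 and 7.87 Gb of aligned bases in D1 and D2, 6.48 to 8.06 Gb in the autotetraploid and 6.15 to 6.82 Gb in the monoploid libraries. The table of D2 stood apart from the other 7 before any gene was compared. It lists the gene models in another order, and 29720 models had a TPM above 0 there, against 30608 in D1 and 30717 to 31453 in the autotetraploid and monoploid libraries. The ratio of TPM to FPKM, which is scaled to gene length and depth, was 1.07 in D2, against 1.17 to 1.25 in the others. Because both diploid libraries had to pass the ratio, the choice of all 66 genes rests on D2, and its values are given beside those of D1. The gene models are paired with no gene names in the tables, none of the IDs matched the RefSeq gene table, and no sequence was used here, so neither the function of the genes nor leaf markers could be examined.

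Among the 52 genes with the diploid above both other levels, D1 had a median of 0.84 and D2 of 0.82 on the log2 scale, relative to the midpoint of the autotetraploid and monoploid means. Over the 14995 genes the same medians were 0.18 in D1 and 0.22 in D2. The mean diploid TPM of the 52 genes was 1.31 to 2.81 times the autotetraploid mean, with a median of 1.52, and 1.35 to 26.7 times the monoploid mean, with a median of 1.90. The excess over the autotetraploid was thus below 3-fold in each of the 52 genes. D1 and D2 lay within 1.25-fold of each other in 47 of the 52 genes (90.4%), against 75.3% of the 14995. Both had to pass the same ratio, and the part of the rule in this closeness was not tested.

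**Figure D1:**
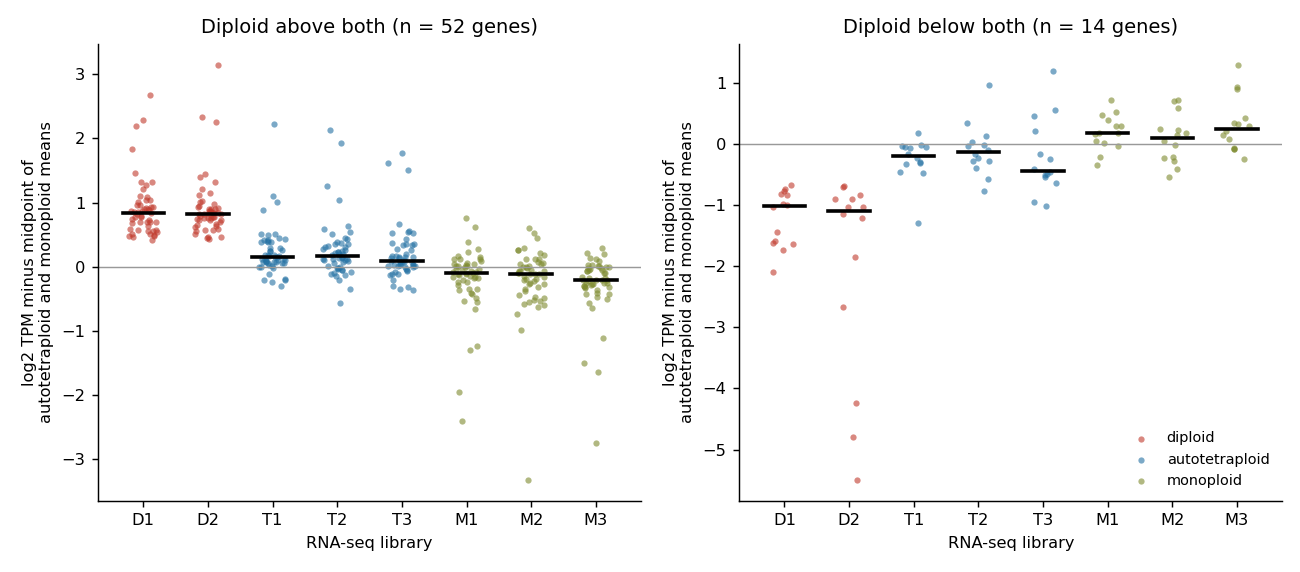
Each point is 1 gene in 1 library, as log2 TPM minus the midpoint of the autotetraploid and monoploid means of that gene, for the 52 genes with the diploid above both (left) and the 14 with the diploid below both (right). Black bars are medians over genes. The genes above have close medians in D1 and D2, and among the genes below 3 points of D2 lie far under the rest.

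BRA06G0037799 had the highest ratio of the rule, 1.64. Its gene model lies on the minus strand of A06 at 49414411 to 49419944. It had 36.7 TPM in D1 and 35.9 TPM in D2, against 20.1, 18.9 and 20.1 TPM in T1, T2 and T3 and 21.9, 20.3 and 19.5 TPM in M1, M2 and M3. The autotetraploid and monoploid libraries overlapped, and both diploid libraries stood above all 6. A second model, BRA06G0037800, lies within the first on the same strand, at 49415583 to 49418117, and how shared reads were divided between them is not given in the sources used here. The inner model had 5.32 and 2.33 TPM in D1 and D2, 2.50 to 4.47 TPM in the autotetraploid and 4.49 to 5.28 TPM in the monoploid libraries, so the diploid overlapped both other levels, while all autotetraploid libraries lay below all monoploid libraries. With the libraries rescaled to a common median ratio, the ratio of BRA06G0037799 was 1.298.

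BRA07G005414, with a ratio of 1.61, had another pattern. Its model lies on the minus strand of A07 at 23437792 to 23439230. It had 31.4 and 34.4 TPM in D1 and D2, against 14.7, 16.4 and 19.5 TPM in T1, T2 and T3 and 1.77, 5.64 and 2.19 TPM in M1, M2 and M3. The 3 levels did not overlap. The diploid mean was 1.95 times the autotetraploid mean and 10.3 times the monoploid mean.

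The 5 of 52 genes in which D1 and D2 differed by more than 1.25-fold were not all shifted the same way, with D1 higher in 3 and D2 higher in 2. One on A06, at 8643783 to 8645245, had 18.9 TPM in D1 and 11.9 TPM in D2, against 5.32 to 7.98 TPM in the autotetraploid and 3.74 to 6.36 TPM in the monoploid libraries. D1 was 1.59 times D2 there, the widest gap of that kind among the 52 genes. At the edge of the rule, the last gene kept had a ratio of 1.252, with 13.0 and 14.0 TPM in D1 and D2, 8.79 to 10.4 TPM in the autotetraploid and 8.78 to 9.51 TPM in the monoploid libraries. The first gene left out had a ratio of 1.247, with 15.7 and 15.6 TPM in D1 and D2, 11.5 to 12.4 TPM in the autotetraploid and 11.2 to 12.5 TPM in the monoploid libraries. Both genes had the diploid libraries above the 6 others, at nearly the same ratio.

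**Figure D2:**
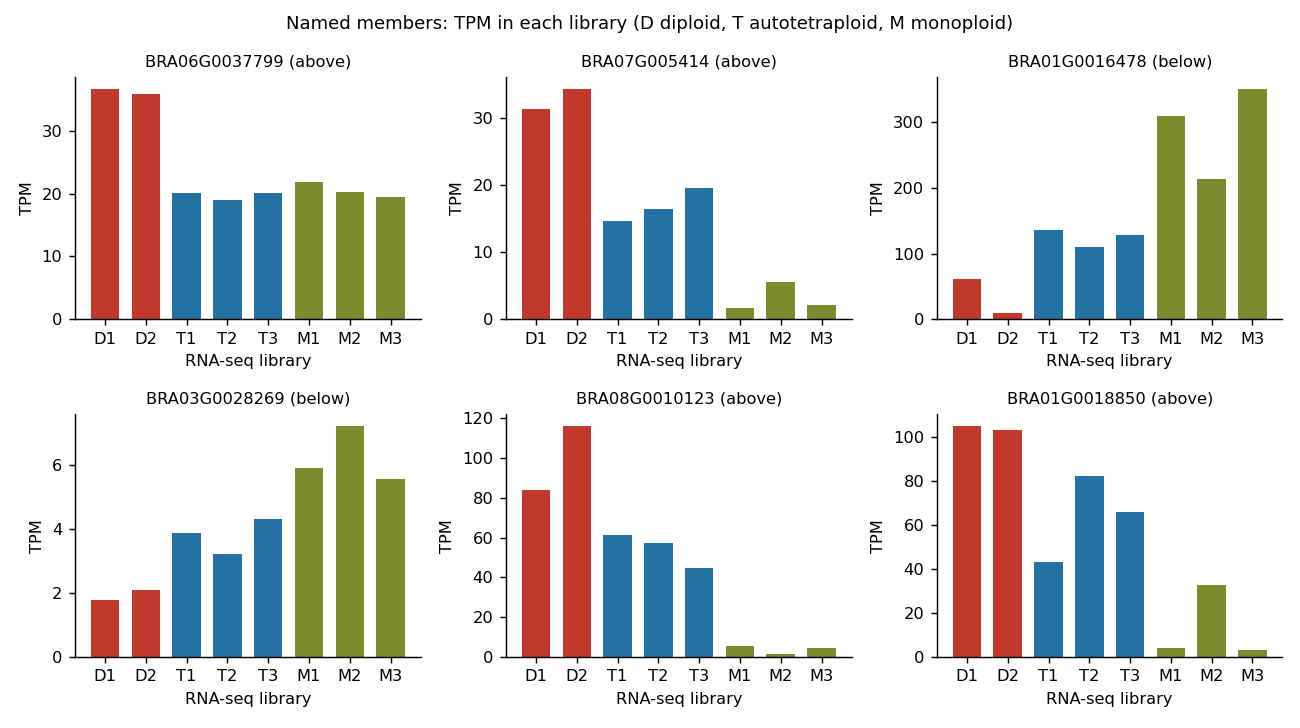
Bars give the TPM of the 6 named genes in each library, with D for diploid, T for autotetraploid and M for monoploid. BRA06G0037799 is level across autotetraploid and monoploid, BRA07G005414, BRA08G0010123 and BRA01G0018850 step down from diploid to autotetraploid to monoploid, and BRA01G0016478 has 60.9 TPM in D1 but 9.94 TPM in D2.

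The 14 genes with the diploid below both other levels were less uniform. D1 had a median of -1.02 and D2 of -1.09 on the log2 scale relative to the midpoint, but the lowest value was -2.10 in D1 and -5.50 in D2. D1 and D2 lay within 1.25-fold of each other in 7 of the 14 genes (50%), against 75.3% of the 14995. D1 was more than 2-fold higher than D2 in 4 of the 14 genes, against 89 of the 14995. No gene of the 14 had D2 more than 2-fold above D1, against 145 of the 14995. The part of the rule in these counts was not tested. The mean diploid TPM of the 14 genes was 0.267 to 0.615 times the autotetraploid mean and 0.122 to 0.683 times the monoploid mean.

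BRA01G0016478 had the strongest ratio, 0.551. Its model lies on the plus strand of A01 at 30886419 to 30888945. It had 60.9 TPM in D1 and 9.94 TPM in D2, against 136, 111 and 129 TPM in T1, T2 and T3 and 308, 213 and 350 TPM in M1, M2 and M3. The 3 levels did not overlap, and the 2 diploid libraries differed by 6.13-fold, more than the diploid mean differed from the autotetraploid mean (0.283 times).

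BRA03G0028269, with a ratio of 0.644, was low in both diploid libraries alike. Its model lies on the minus strand of A03 at 19942510 to 19943212. It had 1.78 and 2.08 TPM in D1 and D2, against 3.88, 3.23 and 4.32 TPM in T1, T2 and T3 and 5.91, 7.23 and 5.57 TPM in M1, M2 and M3. All 8 values are low, and a TPM of 1 was the minimum for any gene.

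In 3 of the 14 genes D2 lay at least 4-fold under all 7 other libraries. Besides BRA01G0016478, these were chosen here after their values were seen. One on A06, at 25338864 to 25339292, had 23.0 TPM in D1 and 1.66 TPM in D2, against 34.5 to 50.1 TPM in the autotetraploid and 37.8 to 57.3 TPM in the monoploid libraries. The other, on A10 at 5806155 to 5806434, had 51.6 TPM in D1 and 2.05 TPM in D2, against 65.9 to 105 TPM in the autotetraploid and 79.2 to 117 TPM in the monoploid libraries. D1 was 13.8 times D2 in the gene on A06 and 25.2 times D2 in the gene on A10, and in both D1 itself lay under the other 6 libraries. The gene on A10 was also the last one kept by the rule, at a ratio of 0.783, and the first left out had 0.801, with 4.11 and 7.03 TPM in D1 and D2, 8.77 to 15.8 TPM in the autotetraploid and 9.86 to 13.6 TPM in the monoploid libraries. Without the 3 genes, 11 lower genes were left, with medians of -1.03 in both D1 and D2.

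**Figure D3:**
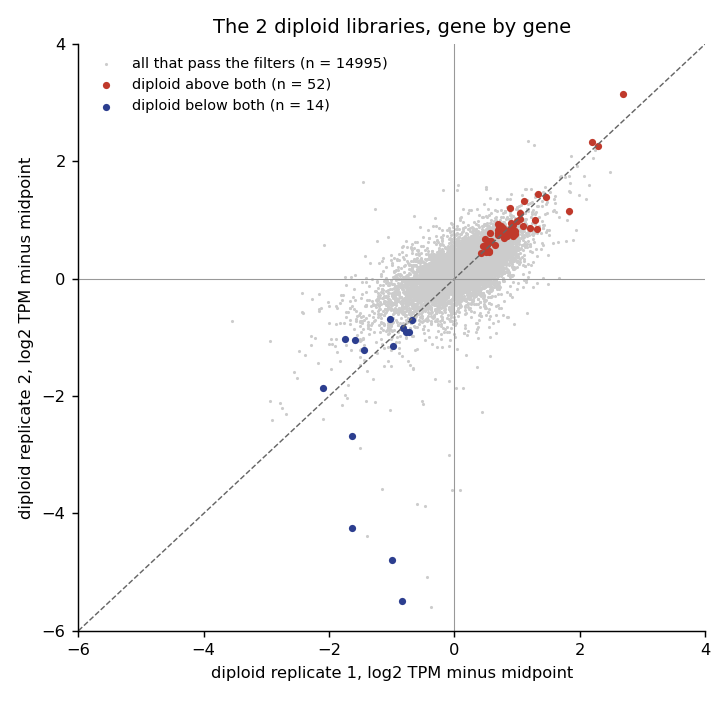
Each point is a gene, with log2 TPM minus the midpoint of the autotetraploid and monoploid means in D1 (horizontal axis) and D2 (vertical axis). Grey points are the 14995 genes that passed the filters, red the 52 above both and blue the 14 below both, and the dashed line marks equal values. The red points follow the line, and D2 was more than 2-fold lower than D1 in 4 blue points, 3 of which lie far under the line.

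Taken singly, the diploid libraries picked out many more genes. D1 alone was past the ratio in 331 genes above and 181 below, and D2 alone in 229 genes above and 64 below. Of the 331 genes above in D1, D2 was higher than all 6 other libraries in 211 (63.7%), and past the ratio in the 52. Of the 181 genes below in D1, D2 was lower than all 6 in 45 (24.9%), and past the ratio in 14 (7.73%). Of the genes of D2, D1 was higher than all 6 in 155 of the 229 above (67.7%) and lower in 25 of the 64 below (39.1%). Single libraries of the autotetraploid, set against the 5 libraries of the other levels, were past the ratio in 265 to 355 genes above and 383 to 742 below. A second autotetraploid library was then beyond all 5 in 49.4% to 66.8% of the genes above and in 54.1% to 72.8% of those below. For monoploid libraries treated likewise, these shares were 66.0% to 95.6% above and 78.9% to 97.0% below. The differences between these shares were not tested.

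How the autotetraploid and monoploid libraries stood to each other in these genes involves no diploid library, although the rule also read the highest and lowest of them. In 21 of the 52 higher genes all autotetraploid libraries lay above all monoploid libraries, in 1 gene all lay below, and in 30 genes they overlapped. Over the 14995 genes, 35.7% had the autotetraploid above and 14.5% below, so the share above in these genes (40.4%) was near the background. In the 21 genes, the median difference between diploid and autotetraploid was 0.56 and that between autotetraploid and monoploid 0.61 on the log2 scale, a graded order with the diploid at the top. In the 30 overlapping genes the same medians were 0.69 and 0.10. Among the 14 lower genes, the autotetraploid lay above the monoploid in 0, below it in 5 (35.7%) and overlapped in 9.

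A linear model fitted with limma to log2(TPM + 1) of 25652 genes gave the test of this contrast, with p-values adjusted by the Benjamini-Hochberg method. A gene was called where the adjusted p was 0.05 or less and the log2 fold change was 1 or more in either direction. Of the 52 higher genes, 4 were higher in the autotetraploid than in the monoploid and 0 lower. Over all tested genes, 5.56% were called higher and 6.01% lower. None of the 14 lower genes was called, with 4 of them (28.6%) at an unadjusted p under 0.05 and 3 (21.4%) at an adjusted p of at most 0.05 from limma. Over all genes these shares were 49.0% and 38.3%, so neither was above the background. Rescaling by median ratios or by quantiles raised the number of the 14 genes called from 0 to 2, both lower in the autotetraploid. Over all genes, 2936 were then called with median ratios and 2877 with quantiles, in both directions together. The median log2 fold change was 0.23 in the 52 genes and -0.22 in the 14, against 0.19 over all 25652.

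BRA08G0010123, on the minus strand of A08 at 18798470 to 18799326, had the largest rise in the autotetraploid among the genes called. It had 61.2, 57.3 and 44.8 TPM in T1, T2 and T3, against 5.32, 1.302 and 4.61 TPM in M1, M2 and M3, while D1 and D2 had 84.0 and 116 TPM. The log2 fold change between autotetraploid and monoploid was 3.66 ± 0.34 (SE), with an adjusted p of 0.00012 from limma. The diploid mean was 26.7 times the monoploid mean and 1.84 times the autotetraploid mean.

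BRA01G0018850, on the plus strand of A01 at 2719855 to 2722143, had 43.3, 82.2 and 65.8 TPM in T1, T2 and T3, against 4.04, 32.8 and 3.21 TPM in M1, M2 and M3. D1 and D2 had 105 and 103 TPM. M2 stood well above M1 and M3, but under every autotetraploid library. The log2 fold change between autotetraploid and monoploid was 2.81 ± 0.66 (SE), with an adjusted p of 0.0104 from limma. Without M2 it was 3.77, with an adjusted p of 7.95e-05 from limma, and without M3 it was 2.26, with an adjusted p of 0.0391. BRA07G005414, described above, was the third gene called, with a log2 fold change of 2.19 ± 0.29 (SE) and an adjusted p of 0.000682 from limma. The fourth, on A01 at 2272854 to 2278114, had 9.60 to 12.4 TPM in the autotetraploid and 2.58 to 5.22 TPM in the monoploid libraries, with 16.7 and 15.97 TPM in D1 and D2.

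The 2 contrasts with the diploid were used by the rule, and their counts are given as a description. Between diploid and monoploid, 13 of the 52 higher genes were called higher (4.87% over all genes) and 8 of the 14 lower genes lower (5.36%). Between diploid and autotetraploid, 0 of the 66 genes were called by limma, where 7 genes or 0.0273% were called over all 25652. At an unadjusted p under 0.05 there were 46 of the 52 and 13 of the 14 genes, against 1388 of 25652. A fit with only D1 or only D2 takes the diploid spread from the other levels, so its counts are not set beside these.

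The same ratio was applied to all 28 pairs that the 8 libraries form, each against the other 6. The diploid pair had 66 genes, the ninth highest total. It was the fifth highest by its 52 genes above and the twelfth by its 14 below. The 21 pairs made of different ploidy levels, some of them with the same replicate number, had 3 to 143 genes with a median of 20. Of these, D1 with T2 gave 47 genes above and 96 below, T3 with M2 gave 60 above and 6 below, and D1 with T1 gave 29 above and 55 below. The count of the diploid pair thus lay inside the range of pairs that have no ploidy level in common. Each of those pairs also had to pass libraries of its own levels, while the diploid pair had none among the other 6. The counts are thus not on equal terms. Pairs share libraries, so no test was made over them.

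**Figure D4:**
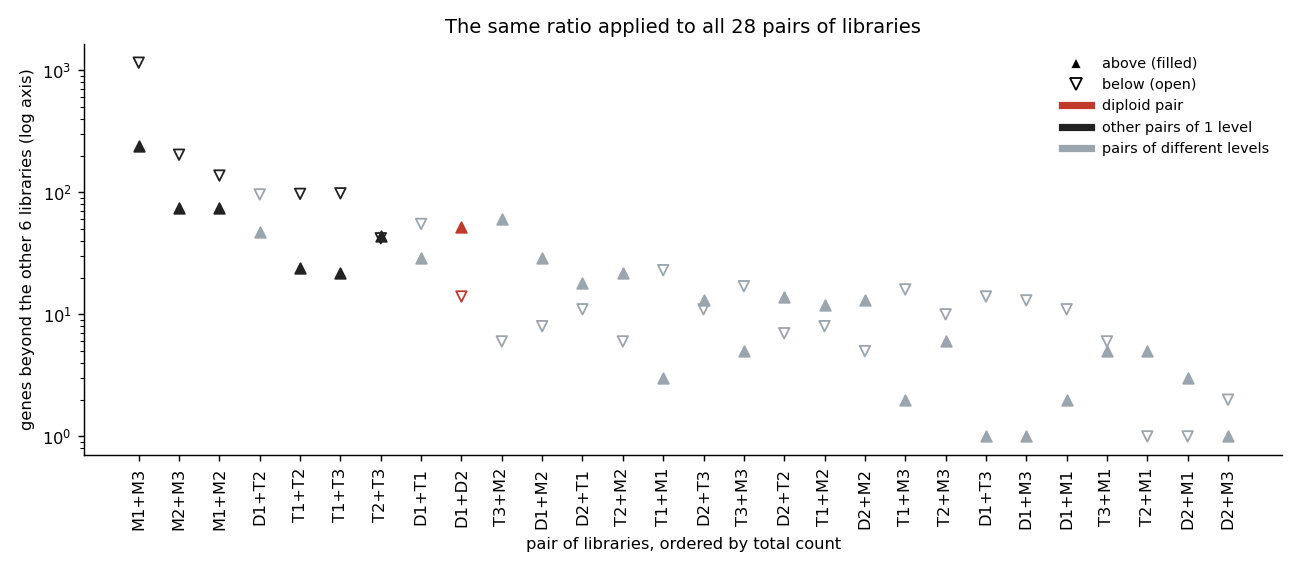
For each of the 28 pairs of libraries, filled triangles give the number of genes at least 1.25 times the highest of the other 6 libraries and open triangles the number at most 0.8 times the lowest, on a log axis. Red marks the diploid pair (52 above, 14 below), black the other pairs within 1 ploidy level and grey the pairs across levels. The highest total is that of M1 and M3, with 1392 genes.

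The 6 other pairs of 1 level had 86 to 1392 genes, although the third library of that level stood among those to be passed. Against the libraries of the 2 other levels only, a setting chosen after the data were seen, the 3 autotetraploid pairs had 64 to 95 genes above and 136 to 197 below. The 3 monoploid pairs had 889 to 1010 above and 2019 to 3323 below. All 3 autotetraploid libraries together passed the ratio in 37 genes above and 72 below, and all 3 monoploid libraries in 789 above and 1823 below. The diploid, with 2 libraries against 6, had 52 and 14, fewer in total than any autotetraploid or monoploid pair against 5.

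The balance of higher and lower genes moved with the scaling. In the deposited TPM the median gene was 0.10 higher in the diploid than in the autotetraploid and 0.30 higher than in the monoploid, in log2 units. After median-ratio rescaling, which removes such shifts, 16 genes lay above and 32 below, and after quantile normalization 23 above and 24 below. The 16 and the 23 higher genes were all among the 52, and all 14 lower genes were among the 32 and the 24. Of the 52 higher genes, 51 still had both diploid libraries above the other 6 after median-ratio rescaling, with ratios of 0.995 to 1.54 over the 52. Higher genes were the majority in TPM and not on either rescaled set. The median-ratio factors were highest in D1 and D2, so that rescaling lowers both against the 6 other libraries. Under it, higher genes could only come from the 52, and the 14 lower genes could only stay past the ratio. Both overlaps were thus fixed in advance for median ratios.

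**Figure D5:**
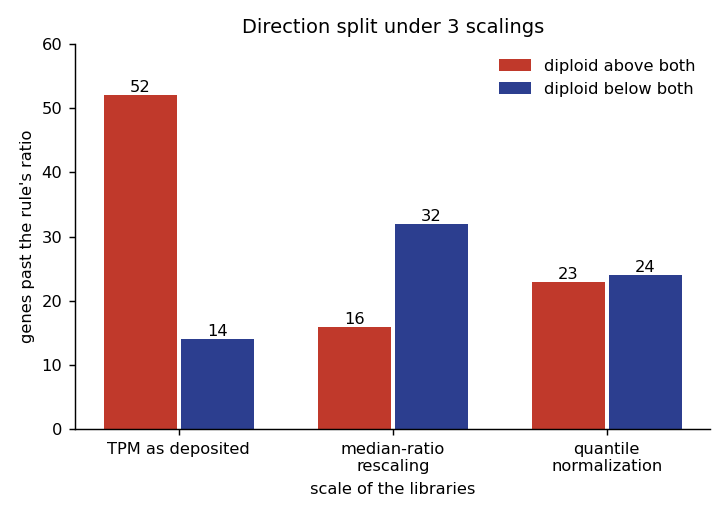
Bars give the number of genes past the ratio of the rule with the diploid above both (red) and below both (blue), for the deposited TPM and for the values rescaled by median ratios or quantiles. The split is 52 and 14, 16 and 32, and 23 and 24.

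The chosen genes had shorter models at the median. The median span was 1264.5 bases for the 52 higher genes and 1688 for the 14 lower genes, against 1833 for the 14995. Models under 1000 bases made up 42.3% of the higher and 35.7% of the lower genes, against 19.4% of all. Their level was lower too, with a median of the mean TPM of 9.08 in the higher and 7.68 in the lower genes, against 13.3 over all. A mean TPM under 5 was found in 28.8% of the higher and 28.6% of the lower genes, against 17.1%. The median coverage, in reads per base, was 65.0 in D1 and 99.5 in D2 for the higher genes and 21.8 in D1 and 16.8 in D2 for the lower genes, against 69.9 and 106 over all. Coverage in D1 and D2, and in part the mean TPM, hold the same diploid values that chose the genes. Low values of both in the lower genes thus follow partly from the rule and are no separate trait. The part of length, level and coverage in the choice of these genes was not tested.

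The spread among autotetraploid and monoploid replicates is a description too, since the rule read the highest or lowest of these libraries. The median SD of log2 TPM was 0.13 in the autotetraploid and 0.23 in the monoploid for the 52 higher genes, 0.31 and 0.25 for the 14 lower genes, and 0.17 and 0.21 for the 14995. One lower gene had 14.8 TPM in T2, against 3.12 and 3.95 TPM in T1 and T3. For lower genes such values do not enter the rule, which reads only the lowest of the 6 libraries. For higher genes it reads the highest of the 6, so a single high library can keep a gene out. The part of the rule in these spreads was not tested.

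The higher genes were scattered over the chromosomes, with 10 on A01, 10 on A03, 9 on A05, 8 on A06, 7 on A07, 6 on A08 and 2 on A10. Of the lower genes, 5 lay on A06, 3 on A05, 2 each on A01 and A10, 1 each on A03 and A08 and 0 on A07. A06 held 15.2% of the 14995 genes, against 15.4% of the higher and 35.7% of the lower genes. None of the models next to a chosen gene was chosen itself, and the smallest distance between 2 chosen genes was 18 models. The neighbours that passed the filters had medians of 0.16 beside the higher and 0.21 beside the lower genes on the log2 scale relative to the midpoint, against 0.20 over all. The minus strand held 59.6% of the higher and 71.4% of the lower genes, against 50.1%.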

How the data were processed

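RNA-seq tables of 2 diploid, 3 autotetraploid and 3 monoploid libraries were used. Per the submitters' processing notes, reads were trimmed with fastp 0.21.0, aligned with HISAT2 2.2.1 (the methods name another version) and quantified with StringTie 1.3.5. The genome build and annotation are not given in the sources used here. The deposited TPM values are scaled to 1 total per library, deposited FPKM is scaled to gene length and depth, and deposited coverage counts how many reads cover a base on average. Depth was taken as coverage divided by FPKM. The authors tested read counts from featureCounts 2.0.1, which the TPM values cannot repeat. Coverage gives the depth per gene, no counting interval was computed from it, and precision rests on the replicates. In 1 table, 3 columns without a sample were not used.

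The rule was applied with pandas 2.3.3 on Python 3.11.15, and figures were drawn with matplotlib 3.10.9. The fit used limma 3.58.1 in R 4.3.3 on log2(TPM + 1), which understates the fold change of low genes. All 8 libraries entered with 3 ploidy levels, a trend on mean expression and genes that reached a TPM of 1 in 2 or more libraries. Rule and fit were tested on simulated data. No names were paired with the 46479 IDs, of which 0 matched the RefSeq gene table. Named were the 2 genes per direction with the strongest ratio and, among those called between autotetraploid and monoploid, the 2 largest rises and falls (there were no falls). The members and lists were chosen with earlier results of these data known. Alternatives were other ratios, minimum TPM values, pseudocounts, scalings, chromosomes, thresholds, fits and each library left out. Counting without the genes in which D2 stood apart, and pairs of 1 level against the other levels only, were chosen after the data were seen.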

Additional observations from a re-analysis of the deposited data

How the results depend on the processing

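With a ratio of 5/3 there were 0 genes above and 1 below, with 11/10 there were 472 and 41, and the 28 pairs then gave a median of 1 gene over the 21 pairs of different levels at 5/3, with the diploid pair ranked 16. A TPM of at least 5 in all libraries left 23 above and 3 below, TPM + 1 left 33 above, no minimum with TPM + 1 gave 25 below, and all chromosomes with the A06 block gave 49 below. Rescaling by median ratios gave 16 above and 32 below, and quantile normalization 23 and 24. With 1 library left out, the counts were 54 to 331 above and 16 to 181 below, the highest without D2, and 229 and 64 without D1, where only 1 diploid library had to pass. Without autotetraploid replicate 1, 2 or 3 there were 176, 139 and 81 above and 39, 25 and 26 below, with 5 libraries to be passed.

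Between autotetraploid and monoploid, a mean TPM of at least 5 left 1937 of 2966 calls. With an autotetraploid or monoploid library left out, 0 to 1 of the 14 lower genes was called, where 2752 to 3271 genes were called in all. With only both groups compared it was 1, with 2951 genes in all. Under either rescaling it was 2, with 2936 (median ratios) and 2877 (quantiles) genes in all. BRA01G0018850 had an adjusted p of 0.0104 in limma, past a threshold of 0.05 but not of 0.01. Over the 17 alternatives for the 4 genes called, the lowest log2 fold change was 1.27 and the highest adjusted p 0.0391. Between diploid and monoploid, a mean TPM of at least 5 left 1723 of 2625 calls, and 1586 to 2900 with a library left out, the lowest without D1. Of the 52 higher genes, 22 were called with a pseudocount of 0.1, where 3531 genes were called in all. After median-ratio rescaling 8 of the 52 were called, with 2550 genes called in all. Of the 14 lower genes, 5 were called without a filter, where 2358 genes were called in all. Under the stricter adjusted p of 0.01, 4 of the 14 were called, with 1932 genes in all. With an autotetraploid or monoploid library left out, 5 to 8 of the 14 were called. Between diploid and autotetraploid, 2 genes were called at a mean TPM of at least 5, 11 without the trend and 3 with only both groups compared. With a library left out there were 6 to 68, with 68 when D1 and 18 when D2 was left out, and 0 to 3 of the 14 lower genes. With 1 diploid library left, its spread is assumed to be that of the other levels, so counts of this contrast without D1 or D2 are not set beside these. The cause of these changes was not tested except where stated.

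The labels do not say what the replicate numbers stand for. The deviations of same-numbered autotetraploid and monoploid libraries correlated at 0.08 to 0.22 over 3 pairs. Between these levels, each library was closest to its own number. Same-numbered pairs with a diploid library correlated at -0.22 to 0.03. Differently numbered pairs with a diploid library ranged from -0.268 (D1 with T3) to 0.268 (D2 with T3). D2 with T3, and D1 with T2 at 0.224, were above every same-numbered pair, of which T1 with M1 was highest at 0.217. A fit with the replicate number as a block called 2981, 2358 and 7 genes between autotetraploid and monoploid, diploid and monoploid, and diploid and autotetraploid, and 1 of the 14 lower genes in the first of these. The tables give coverage and no read counts, and no counting error was computed from it.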

Other observations

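D2 lay at least 4-fold under all 7 other libraries in 12 of the 14995 genes, of which 3 belong to the 14 lower genes. The same count was 0 in D1, 0 to 1 in the autotetraploid and 0 to 1 in the monoploid libraries. D2 was at least 4-fold above all others in 0 genes. At 2-fold, D2 lay under all others in 22 genes, against 5 in D1, 2 to 20 in the autotetraploid and 7 to 16 in the monoploid libraries, and M2 lay above all others in 91 genes. The genes were looked up after this pattern was seen. Among the other 9, a model on A03 at 16050668 to 16058097 had 278 TPM in D1 and 11.1 TPM in D2, against 236 to 641 TPM in the autotetraploid and 346 to 467 TPM in the monoploid libraries. Another on A03, at 16069020 to 16074322, had 227 TPM in D1 and 24.1 TPM in D2, against 205 to 578 TPM in the autotetraploid and 319 to 451 TPM in the monoploid libraries. A model on A06 at 25372875 to 25373405 had 14.8 TPM in D1 and 1.86 TPM in D2, against 17.3 to 35.9 TPM in the autotetraploid and 41.5 to 68.9 TPM in the monoploid libraries. It lies close to the lower gene on A06 described above. The table of D2 also differs in its order of gene models and its ratio of TPM to FPKM, and the part of these differences in the 12 genes was not tested.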
